A study of Mus musculus with 9 samples.

Results

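Blood progenitors that had lost Drosha were compared directly with blood progenitors that had lost Dicer. The samples were the 3 arrays whose titles name a Drosha knockout and the 3 whose titles name a Dicer knockout, 6 of the 9 arrays in the series, and no control array entered any value below. The cells were LSK cells, the bone marrow fraction that is negative for lineage markers, positive for Sca1 and cKit, and enriched for blood stem cells. The Drosha-deleted group came from female Drosha fl/fl Gt(ROSA)26Sor CreERT2 mice and the Dicer-deleted group from female Dicer fl/fl Gt(ROSA)26Sor CreERT2 mice. Both groups thus carried the same tamoxifen-activated Cre recombinase, which is expressed from the Rosa26 locus in most cell types and which the control animals of the series carry without a floxed gene. Both were also cultured alike for 72 h with 250 nM 4OH-tamoxifen, 10 ng/mL IL-3, 10 ng/mL IL-6, 50 ng/mL SCF and 10% FCS, at 50000 cells per well in 50 µL. The labels do not say that the replicates came from separate animals or cultures, so the p-values measure only the spread between these samples, which may be technical.

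MicroRNAs are cut from longer transcripts in stages. In the nucleus Drosha, held by its partner Dgcr8, releases a hairpin from the primary transcript, which may be a noncoding RNA or the intron or exon of a protein-coding gene. The rest of a noncoding primary transcript is usually degraded. Dicer then cuts the hairpin in the cytoplasm into the mature microRNA that Argonaute proteins load. In the blood system microRNAs take part in stem cell maintenance and in lineage choice. Since loss of either enzyme stops the production of most microRNAs, the direct comparison asks what the absence of Drosha does that the absence of Dicer does not, above all to the primary transcripts that Drosha cleaves.

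The primary transcripts described below hold microRNAs of a few families, which are shown first because the families recur at separate loci. All sequences are mature forms from RefSeq for GRCm38.p6, written 5′ to 3′ with the seed, bases 2 to 8, in capitals. The first set belongs to the miR-17 cluster on chromosome 14 and its paralogous miR-106a cluster on chromosome X, which share the seeds AAAGUGC and AUUGCAC.
miR-17-5p: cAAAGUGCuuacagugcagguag
miR-20a-5p: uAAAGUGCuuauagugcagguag
miR-106a-5p: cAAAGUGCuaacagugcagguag
miR-20b-5p: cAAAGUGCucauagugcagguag
miR-18a-5p: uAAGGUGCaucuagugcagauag
miR-19a-3p: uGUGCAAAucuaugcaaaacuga
miR-19b-3p: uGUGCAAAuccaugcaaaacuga
miR-92a-3p: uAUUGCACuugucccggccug
miR-363-3p: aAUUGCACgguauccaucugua

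The second set comes from the transcripts of miR-15a and miR-16-1, of miR-322, of miR-29a and miR-29b-1, of miR-101a, of miR-221 and miR-222, and of miR-22. The seed AGCAGCA is common to miR-15a, miR-16 and miR-322, which lie on chromosomes 14 and X.
miR-15a-5p: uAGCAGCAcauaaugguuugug
miR-16-5p: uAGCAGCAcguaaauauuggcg
miR-322-5p: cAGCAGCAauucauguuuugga
miR-29a-3p: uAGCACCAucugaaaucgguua
miR-29b-3p: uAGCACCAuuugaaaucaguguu
miR-101a-3p: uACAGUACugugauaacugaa
miR-221-3p: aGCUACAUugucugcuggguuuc
miR-222-3p: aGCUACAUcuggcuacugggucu
miR-22-3p: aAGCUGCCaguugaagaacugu

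The third set comes from the transcript of miR-99a, let-7c-1 and miR-125b-2, from the miR-322 cluster, which also holds miR-351, and from the host genes Aopep and 2610318N02Rik. In all, 25 microRNAs with 15 seeds are printed, and 7 of the seeds are shared by more than 1 of them. The transcripts also hold miR-23b, miR-30b, miR-30d and miR-301b.
miR-99a-5p: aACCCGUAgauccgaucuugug
let-7c-5p: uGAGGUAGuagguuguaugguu
miR-125b-5p: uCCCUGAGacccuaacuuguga
miR-351-5p: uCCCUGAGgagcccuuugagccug
miR-27b-3p: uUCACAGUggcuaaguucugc
miR-24-3p: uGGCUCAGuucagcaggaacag
miR-130b-3p: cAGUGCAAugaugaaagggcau

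Drosha cuts near the base of a hairpin. Of the hairpins shown, Mir101a (chr4:101346945-101347027, minus strand) and Mir17 (chr14:115043671-115043754, plus strand) lie in noncoding transcripts, and Mir1306 (chr16:18284239-18284317, minus strand) lies within Dgcr8, whose messenger RNA is itself known to be cut by Drosha. Positions are those of GRCm38.p6, and capitals mark the mature arms.
Mir101a hairpin: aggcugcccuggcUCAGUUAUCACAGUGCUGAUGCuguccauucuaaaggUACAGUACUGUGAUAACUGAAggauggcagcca
Mir17 hairpin: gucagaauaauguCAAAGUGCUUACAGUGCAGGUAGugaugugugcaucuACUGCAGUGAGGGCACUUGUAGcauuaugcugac
Mir1306 hairpin: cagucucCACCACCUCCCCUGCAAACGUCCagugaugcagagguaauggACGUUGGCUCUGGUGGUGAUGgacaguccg

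The arrays measured the longer transcripts around such hairpins with probes of 60 bases. The probes of 3 intergenic regions on which the results turn are given with their positions on mm9, the build of the array, and every region below is named by its mm9 position and by its neighbouring protein-coding genes. They were chr4:101019147-101019206 (minus strand), between Jak1 and Ak4; chr14:62262197-62262256 (minus strand), between Kcnrg and Dleu7; and chr14:115445828-115445887 (plus strand), between Slitrk5 and Gpc5.
probe Jak1-Ak4: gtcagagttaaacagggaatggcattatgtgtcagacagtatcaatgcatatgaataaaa
probe Kcnrg-Dleu7: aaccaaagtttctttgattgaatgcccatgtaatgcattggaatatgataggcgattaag
probe Slitrk5-Gpc5: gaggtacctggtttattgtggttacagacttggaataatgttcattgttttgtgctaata

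The 6 arrays lay on 1 slide. The share of probes well above background ran from 56.0% to 61.5%, no spot was saturated, and between 0.20% and 0.26% of spots carried an outlier mark. Drosha-deleted replicates 1 and 2 lay in the first row of the slide, and Drosha-deleted replicate 3 lay in the second row with the 3 Dicer-deleted arrays. Over all features the first 2 correlated most with each other (Pearson's r = 0.9939), whereas Drosha-deleted replicate 3 correlated most with Dicer-deleted replicate 1 (0.9863), and the authors' values gave the same nearest arrays for these 3. Dicer-deleted replicate 3 was closest to Drosha-deleted replicate 1 in the scanner values (0.9895) and to Dicer-deleted replicate 1 in the authors' values (0.9933). Levels are given as the log2 scanner signal less the 75th percentile of the array, so that 0 is the level of that percentile, and differences are Drosha-deleted minus Dicer-deleted on the log2 scale. The genes of the markers used in the sort, and the progenitor gene Cd34, were well above background on all 6 arrays: Ly6a, which encodes Sca1, had a mean of 2.07 ± 0.39 (SD, n = 3) after loss of Drosha and of 1.89 ± 0.69 (SD, n = 3) after loss of Dicer, Kit at 2.92 ± 0.63 and 3.19 ± 0.34, and Cd34 at 5.75 ± 0.36 and 5.87 ± 0.29. Genes of maturing cells were well above background on all 6 arrays too, among them the granule enzyme Mpo, at 8.66 ± 0.18 and 8.26 ± 0.52, the integrin Itgam, at 5.40 ± 0.33 and 5.38 ± 0.16, and the T cell gene Cd3e, at 1.41 ± 0.26 and 1.16 ± 0.14.

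Each targeted gene was lower in the cells in which it was floxed. Drosha was at -0.67, -0.47 and 0.03 in Drosha-deleted replicates 1 to 3 and at 2.65, 2.93 and 2.57 in Dicer-deleted replicates 1 to 3. The groups did not overlap, and Drosha fell by 3.09 (95% interval -3.59 to -2.58), an 8.50-fold difference, with a limma adjusted p of 0.0301. A second Drosha probe differed by -2.98. Dicer1 was at 1.25, 0.70 and 1.56 in Drosha-deleted and at -0.31, -0.15 and -0.42 in Dicer-deleted cells. These groups did not overlap either, but the difference of 1.46 (0.91 to 2.02), 2.76-fold, did not pass the threshold over all genes (limma adjusted p = 0.248). The labels do not say which exons are flanked by loxP sites, so whether these probes lie in the deleted parts is not known.

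Few features separated the deletions at this number of arrays. Of 22440 genes and regions tested, 8 passed an adjusted p of 0.05 in limma, 0.0357%, with 6 higher in Drosha-deleted cells (0.0267%) and 2 lower (0.00891%). At an unadjusted p under 0.05 there were 961 higher (4.28%) and 773 lower (3.44%), together 7.73%, and the median difference over all features was -0.01. In the authors' deposited log2 values, tested the same way, 11 features passed (0.049%), 10 higher (0.0446%) and 1 lower (0.00446%), and 8.12% had an unadjusted p under 0.05 (4.64% higher, 3.48% lower). The calls had 6 features in common and 13 in either source, and 9 of the 13 hold a microRNA in their span or on their strand between the same neighbouring genes. Among all 22440 features, 170 noncoding and 473 protein-coding ones had a microRNA on their strand in this sense. Leaving out Dicer-deleted replicate 2, Drosha-deleted replicate 1 or Drosha-deleted replicate 2 left 0 calls in the scanner values, with 1528, 1232 and 1490 features at an unadjusted p under 0.05. Without Dicer-deleted replicate 1 there were 2 calls, without Dicer-deleted replicate 3 there were 4, and without Drosha-deleted replicate 3 there were 8, of which 4 were among the original 8. In the authors' values each such omission left 3 to 5 calls.

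**Figure D1:**
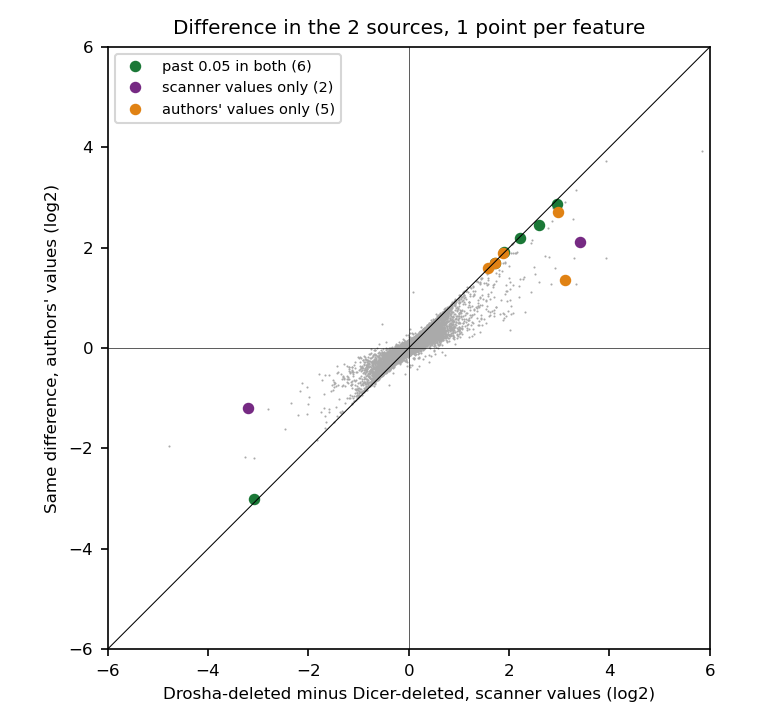
Difference between Drosha-deleted and Dicer-deleted cells by scanner signal (x axis, log2) and by the deposited series table of the authors (y axis, log2), 1 grey point for each of 22440 features; coloured points passed a limma adjusted p of 0.05 in both sources (6), in the scanner values only (2) or in the authors' values only (5). The line marks equal differences, and most coloured points lie at positive differences in both sources.

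Of the 6 features called higher in the scanner values 4 were noncoding features on the strand of a microRNA, as were 5 of the 10 called higher in the authors' values, where 2 of the 5 match the same bases. This class held 170 of the 22440 features tested. Of the 4, the region between Usp25 and Cxadr passed the filter on background through the Drosha-deleted arrays alone, and so could only come out higher. The region chr4:101010948-101032148 had the smallest p of all. It lies between Jak1 and Ak4, as miR-101a does in gene order, and on the same strand. It was at 1.81, 1.60 and 1.69 in the Drosha-deleted replicates and at -1.08, -1.30 and -1.37 in the Dicer-deleted replicates. All Drosha-deleted arrays lay above all Dicer-deleted arrays, and the difference was 2.95 (2.65 to 3.25), 7.72-fold, with a limma adjusted p of 0.00498. In the authors' values the same probe differed by 2.88 (limma adjusted p = 0.00233). The other probes of the region were dimmer and differed less. One that passed the filter was well above background on 1 Dicer-deleted array and differed by 1.38, and by 0.64 in the authors' values. Another, which did not pass the filter, differed by 2.09 and by 0.64 in the authors' values. E130102H24Rik, a noncoding transcript whose span in RefSeq holds Mir101a, differed by 1.08 (limma adjusted p = 0.252), with non-overlapping groups.

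The locus of miR-15a and miR-16-1, a pair known for repressing cell cycle and survival genes, gave the same direction. The region chr14:62254361-62301162 between Kcnrg and Dleu7 was at 1.48, 1.13 and 1.14 in Drosha-deleted cells and at -1.15, -1.70 and -1.17 in Dicer-deleted cells. The groups were apart, with a difference of 2.59 (2.12 to 3.06), 6.03-fold, and a limma adjusted p of 0.0375, against 2.45 and 0.0141 in the authors' values. A second probe of the region differed by 2.83. Dleu2, the long noncoding RNA in whose span RefSeq places both hairpins, was at -0.24, -0.48 and -0.70 against -1.81, -1.64 and -1.25. Its difference of 1.09 did not pass the threshold (limma adjusted p = 0.306), and its second well-measured probe differed by 0.85.

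The miR-17 cluster, a group of microRNAs known for promoting proliferation and lymphoid survival, is carried by Mir17hg and by the region chr14:115443612-115445950 between Slitrk5 and Gpc5. The region was at 3.07, 2.91 and 3.37 in Drosha-deleted and at 1.40, 1.22 and 1.06 in Dicer-deleted cells, a difference of 1.89 (1.50 to 2.28), 3.71-fold, with a limma adjusted p of 0.0485. Mir17hg was at 3.06, 2.85 and 3.41 against 1.33, 1.18 and 1.20, a difference of 1.87 that just missed the threshold (limma adjusted p = 0.0502) and passed it in the authors' values (1.90, 0.0266). The Mir17hg probe and the brightest probe of the region match the same 60 bases, so they are repeat measurements of 1 sequence and not separate evidence. The other probes of the region, 2 in number, differed by 1.81 and 1.96. A wider region over the same locus, chr14:115423660-115463160, measured by a probe 5′ of these, differed by 0.32 (-0.19 to 0.82) and its groups overlapped.

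The miR-29a and miR-29b-1 locus between Klf14 and Mkln1 showed both kinds of feature within a short distance. The region chr6:31007184-31007725 was at 1.74, 0.96 and 1.46 in Drosha-deleted and at -1.67, -1.93 and -1.18 in Dicer-deleted cells. The groups were apart by a wide margin, with a difference of 2.98 (2.33 to 3.63), 7.90-fold, which stood just outside the threshold in the scanner values (limma adjusted p = 0.0502) and inside it in the authors' values (2.71, 0.0266). Other probes of that region differed by 2.36 and 3.04. The neighbouring regions on the same strand did not share the size: chr6:31017987-31174287 differed by 0.46, chr6:31001656-31002219 by 0.35 and chr6:31078802-31079644 by -0.64, with limma adjusted p of 0.617, 0.682 and 0.661.

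Between Usp25 and Cxadr, the transcript of miR-99a, let-7c-1 and miR-125b-2 was well above background on Drosha-deleted arrays only. The region chr16:77670599-77691642 was at -2.47, -1.92 and -1.78 in Drosha-deleted cells and was not well above background on any Dicer-deleted array, where it read -5.10, -5.31 and -6.02. Against the lowest signal that counted as well above background, it was at least 6.80-fold higher in Drosha-deleted cells (measured difference 3.42, limma adjusted p = 0.0485). The authors' values gave 2.11 (limma adjusted p = 0.0771) from another probe of the region, the brighter one there, and 1.72 for the first probe. In the scanner values that other probe differed by 4.37 and was also not well above background on any Dicer-deleted array. Mir99ahg, the noncoding host gene between the same neighbours, was likewise at -3.60, -2.78 and -2.97 in Drosha-deleted cells and not well above background in the Dicer-deleted cells, at least 3.03-fold higher (limma adjusted p = 0.356). A second region there, chr16:77682803-77708453, differed by 0.53 with overlapping groups and was well above background on 1 of the 3 Dicer-deleted arrays.

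**Figure D2:**
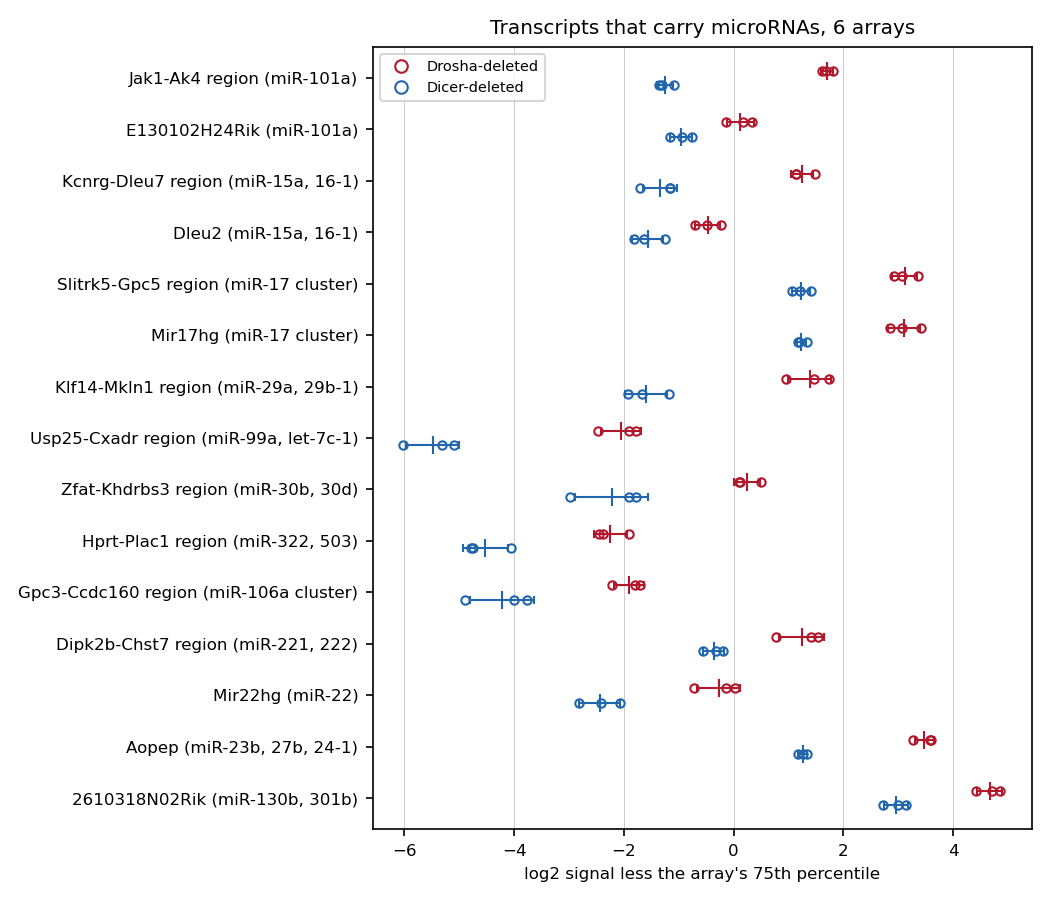
Levels of 15 microRNA-carrying transcripts on each array (x axis, log2 signal less the 75th percentile of the array), with Drosha-deleted arrays in red and Dicer-deleted arrays in blue; circles are arrays, and the vertical tick and bar give the mean and SD of 3 arrays. The rows were chosen with their values known, and features of the same loci whose groups overlapped are not shown. By this choice the 3 Drosha-deleted arrays lie above the 3 Dicer-deleted arrays in every row. Differences run from 1.08 for E130102H24Rik to 2.98 for the Klf14-Mkln1 region. The Usp25-Cxadr region was not well above background on the Dicer-deleted arrays and was at least 6.80-fold higher. The rows of Mir17hg and the Slitrk5-Gpc5 region match the same bases.

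Further microRNA loci had separated groups without passing the threshold over all features. On chromosome X, the region chrX:50407969-50410370 between Hprt and Plac1, which lies with miR-322, miR-503, miR-351, miR-542 and the miR-450 genes, was at -1.90, -2.46 and -2.38 against -4.74, -4.78 and -4.05, a difference of 2.28 (limma adjusted p = 0.0988); it was well above background on 1 of the 3 Dicer-deleted arrays. C430049B03Rik, the noncoding RNA whose span holds miR-322, miR-503 and miR-351, differed by 1.54 (0.0988) and the overlapping region chrX:50400250-50410825 by 1.13 (0.274). The region of the miR-106a cluster, chrX:50087925-50101700 between Gpc3 and Ccdc160, was at -1.80, -2.23 and -1.71 against -4.00, -3.77 and -4.89, a difference of 2.31 (0.178), and was well above background on 2 of the 3 Dicer-deleted arrays. The regions of miR-221 and miR-222, which are known to target the receptor Kit, were chrX:18734106-18744367, with a difference of 1.60 (0.205), and chrX:18810088-18814982, with 1.09 (0.306). All these groups were apart, and each named region is on the strand of its microRNAs.

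The same held for the hosts of microRNAs with known roles in myeloid and stem cells. Mir22hg, the long noncoding RNA that carries miR-22, was at 0.03, -0.13 and -0.72 in Drosha-deleted and at -2.08, -2.82 and -2.41 in Dicer-deleted cells, a difference of 2.16 (limma adjusted p = 0.133). F630028O10Rik, whose span holds the myeloid microRNA miR-223, was at -1.14, -0.94 and -1.50 against -2.28, -3.96 and -2.59, a difference of 1.74 (0.465) in which Dicer-deleted replicate 2 was the lowest array. Near miR-181a-1 and miR-181b-1, between Nr5a2 and Ptprc, chr1:139856545-139857204 differed by 1.21 with groups apart and chr1:139847592-139848243 by 0.96 with groups that overlapped. Near miR-30b and miR-30d, between Zfat and Khdrbs3, chr15:68170864-68171544 was at 0.51, 0.10 and 0.12 against -2.98, -1.91 and -1.77, a difference of 2.46 (0.178). The strand of miR-30b and miR-30d was not read from the tables used.

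Not every noncoding host differed. Of 25 listed host transcripts, 13 were on the array and 8 passed the filter on background; 4 of the 8 were higher at an unadjusted p under 0.05, 0 were lower, and 0 passed the adjusted threshold, against 4.28% and 3.44% of all features at an unadjusted p under 0.05. The median difference of the 8 was 0.78, against -0.01 over all features. Mirt1 differed by 0.46 (-0.36 to 1.27) and Mir100hg by 0.34 (-0.53 to 1.20), both with overlapping groups. A host that passed the filter through the Drosha-deleted arrays alone, as Mir99ahg did, could only have come out higher there, so the median describes these 8 and not the list.

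Noncoding features were then grouped by the strand of the microRNAs in the same gene interval. The shares were not tested against each other. In the array's noncoding features, 170 lay on the strand of a microRNA within the same gene interval, and 17 of these (10%) were higher in Drosha-deleted cells by more than 1 log2 unit, against 1.18% of all features, while 0 were lower by as much, against 0.575%. Of the 82 noncoding features with a microRNA on the opposite strand only, 0 were higher by that amount and 1 was lower, chr12:77550684-77551505, which was not well above background on any Drosha-deleted array. Of 3384 noncoding features with no microRNA in the interval, 19 (0.561%) were higher and 23 lower. By this assignment the host Mir99ahg, described above, was not among the 170. In the authors' values 15 of the 170 (8.82%) were higher by more than 1 unit, against 0.0887% of the noncoding features without a microRNA and 0.575% of all features, and 0 were lower by as much, against 0.152% of all.

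A feature that passed the filter on background through the Drosha-deleted arrays alone was bound to tend higher there, and 3 of the 17 were short of background on at least 1 Dicer-deleted array. Among features well above background on all 6 arrays, 14 of 152 same-strand features (9.21%) were higher by more than 1 unit, against 0.0661% of the noncoding features without a microRNA and 0.625% of all, and 0 were lower by as much.

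The groups were apart, with all Drosha-deleted arrays higher, for 32 of the 170 same-strand features (18.8%), against 8.16% of those without a microRNA and 7.75% of all features. They were apart in the other direction for 6 (3.53%), against 7.6% of all features. In the authors' values 37 (21.8%) were apart and higher and 3 (1.76%) apart and lower, against 8.77% and 6.84% of all features. Of the 50 features with the smallest p in the whole table, 11 were same-strand noncoding features and 2 were noncoding features without a microRNA. The median of the 170 was 0.10, so most of the class differed little. The 170 features lay in 74 gene intervals and are not independent: the 17 above 1 unit came from 11 intervals, which held 38 features, and the other features of those intervals ranged from -0.64 to 0.96. Outside them the lowest value belonged to chr4:149445201-149445902 near miR-34a, at -0.71.

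**Figure D3:**
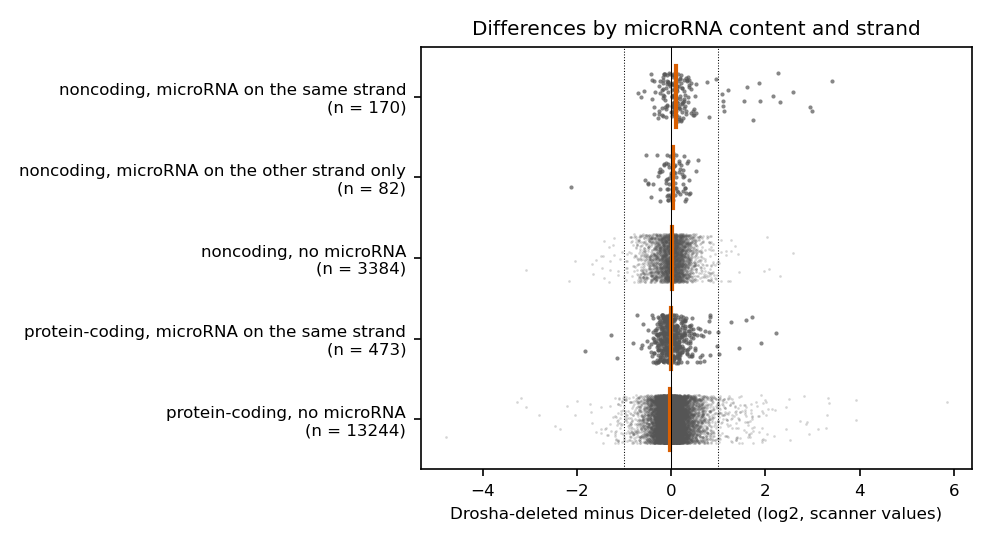
Difference between Drosha-deleted and Dicer-deleted cells (x axis, log2, scanner values) for features grouped by coding status and by the strand of any microRNA; each point is a feature, orange bars are medians and dotted lines mark differences of 1 and -1. The long right-hand tail of the top row is the 17 of 170 same-strand noncoding features above 1 unit, and the row for the opposite strand holds 0 of 82.

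Protein-coding genes that host microRNAs mostly showed no such difference. Of 473 coding genes with a same-strand microRNA, 7 (1.48%) were higher by more than 1 unit and 3 were lower, near the 1.26% of the 13244 coding genes without one. By rank and by calls the shares lay further apart, which was not tested: 4 of the 473 were among the 50 features with the smallest p, against 22 of the 13244, and 3 were called higher in the authors' values, against 1. In the list of 50 well-known coding hosts, 42 were measured, and the median was 0.09. At an unadjusted p under 0.05, 5 of the 42 were higher and 0 lower, against 4.28% and 3.44% of all features. Besides Aopep, the 41 others lay between -0.51 and 0.73 with no adjusted p under 0.433. Smc4, a chromosome condensation gene that hosts miR-15b and miR-16-2, differed by 0.32 (limma adjusted p = 0.623), Mcm7, a replication helicase gene that hosts the miR-106b cluster, by 0.21 (0.737), Chm by 0.45 (0.505), and Sfmbt2, the host of a large rodent cluster, by 0.73 (0.433). The noncoding regions on chromosome 14 that hold members of the same families differed by 2.59 and 1.89, as given above; whether these differences differ from those of Smc4 and Mcm7 was not tested.

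Aopep, an aminopeptidase gene with miR-23b, miR-27b and miR-24-1 in its span, was the exception in the list and had the second smallest p of all features. Its brightest probe, chr13:63400842-63400901, was at 3.57, 3.59 and 3.27 in Drosha-deleted and at 1.33, 1.27 and 1.17 in Dicer-deleted cells. The difference was 2.22 (1.91 to 2.54), 4.66-fold, with a limma adjusted p of 0.0184, and 2.20 and 0.00233 in the authors' values. A second Aopep probe, chr13:63403319-63403378, was at 1.51, 1.54 and 1.15 against 1.89, 1.77 and 2.14, a difference of -0.53. The probes therefore disagreed in direction, and the mean over the gene's probes was 0.84, so the value belongs to the first probe and not to every transcript of the gene.

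The gene 2610318N02Rik, with miR-130b and miR-301b in its span, behaved alike. It was at 4.86, 4.72 and 4.42 in Drosha-deleted and at 2.71, 3.15 and 3.00 in Dicer-deleted cells, a difference of 1.71 (1.29 to 2.13), 3.27-fold, which passed in the authors' values (limma adjusted p = 0.0266) and not in the scanner values (0.0842). Of its other probes, chr16:17113552-17113611 differed by 1.73, chr16:17118540-17118599 by 1.23 and chr16:17123606-17123665 by -0.46. Hoxb3, a homeobox gene with miR-10a in its RefSeq span, differed by 1.02 (limma adjusted p = 0.411) with groups apart, and was well above background on 2 of the 3 Dicer-deleted arrays. Hosts can also be lower: Zfr, an RNA-binding protein gene with miR-1898 in its span, was at -2.01, -2.19 and -1.76 against -0.65, -0.46 and -1.04, a difference of -1.27 (0.239), and Cpne7 differed by -1.14 (0.280).

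Among messenger RNAs reported to be cut by Drosha directly, Dgcr8 and Myl9 were the higher ones. Dgcr8, the RNA-binding partner of Drosha, was at 2.79, 2.82 and 2.91 in Drosha-deleted and at 1.23, 1.55 and 0.98 in Dicer-deleted cells. The groups were apart, and the difference of 1.58 (1.19 to 1.98), 3.00-fold, passed in the authors' values (1.60, limma adjusted p = 0.0314) and not in the scanner values (0.0881). Myl9, a regulatory light chain of myosin II, was at -0.75, -0.39 and 0.22 against -2.55, -2.99 and -2.69, a difference of 2.43 (1.79 to 3.07), 5.39-fold, with a limma adjusted p of 0.0988, and 2.09 and 0.0771 in the authors' values. Nfib, a transcription factor gene whose cleavage by Drosha was described in neural stem cells, lay near the background limit and differed by -0.14 (-0.64 to 0.35), a sign that turned to 0.08 in the authors' values. These 3 were the measured members of a list of 6, and Myl9 was probably put forward by a publication on these very samples, which makes its direction here no independent support.

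Of the other 27 measured genes of myosin II and its regulators besides Myl9 and Cfl2, differences ranged from -1.27 to 0.86, with no adjusted p under 0.306. Tpm2, a tropomyosin gene, differed by 0.86 (limma adjusted p = 0.306) and Mylk, which encodes the kinase of the myosin light chain, by 0.79 (0.476), both with groups apart. Over the 29 measured genes of the list, 5 were higher and 2 lower at an unadjusted p under 0.05, against 4.28% and 3.44% of all features, and the median was 0.06. The 2 lower genes were Myh10, a myosin II heavy chain gene, at -1.27 (limma adjusted p = 0.524), and Tagln, an actin-binding protein gene of smooth muscle, at -0.67 (0.598). Cfl2, which encodes an actin-severing cofilin, was the member that passed. It was at 2.07, 1.77 and 1.61 in Drosha-deleted and at 0.09, 0.16 and 0.03 in Dicer-deleted cells, with a difference of 1.72 (1.37 to 2.07), 3.29-fold, and a limma adjusted p of 0.0485, against 1.69 and 0.0266 in the authors' values. A second Cfl2 probe differed by 1.19, and no microRNA lies within the gene in the table used.

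The other genes of the processing pathway showed smaller differences. Of the 8 measured genes of nuclear cleavage and export besides Drosha and Dgcr8, all lay between -0.46 and 0.39 and 0 had an unadjusted p under 0.05. They included Srrt, a cap-associated processing factor, at -0.46, the helicase gene Ddx5, at 0.39, and Khsrp, which binds some precursor hairpins, at 0.21. Of the 7 measured partners of Dicer besides Dicer1 itself, differences ran from -0.06 to 0.34, and Tarbp2, a double-stranded RNA-binding partner, was highest at 0.34 (limma adjusted p = 0.598). Among 17 genes of the Argonaute and silencing complex 0 had an unadjusted p under 0.05, the median was 0.03, and the scaffold genes Tnrc6a and Tnrc6b differed by 0.36 and 0.26. Dicer1, a known target of let-7, is also in the let-7 target list. Of its 17 measured genes 2 were higher at an unadjusted p under 0.05, against 4.28% of all features, and the median was 0.07. The 2 were Ccr7 and Dicer1 itself. Since Dicer1 was floxed in the Dicer-deleted group, its difference is no evidence on let-7 targets. In 22 targets of miR-155 and miR-146a 1 was higher, Jarid2 at 0.50, and the median was 0.03.

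**Figure D4:**
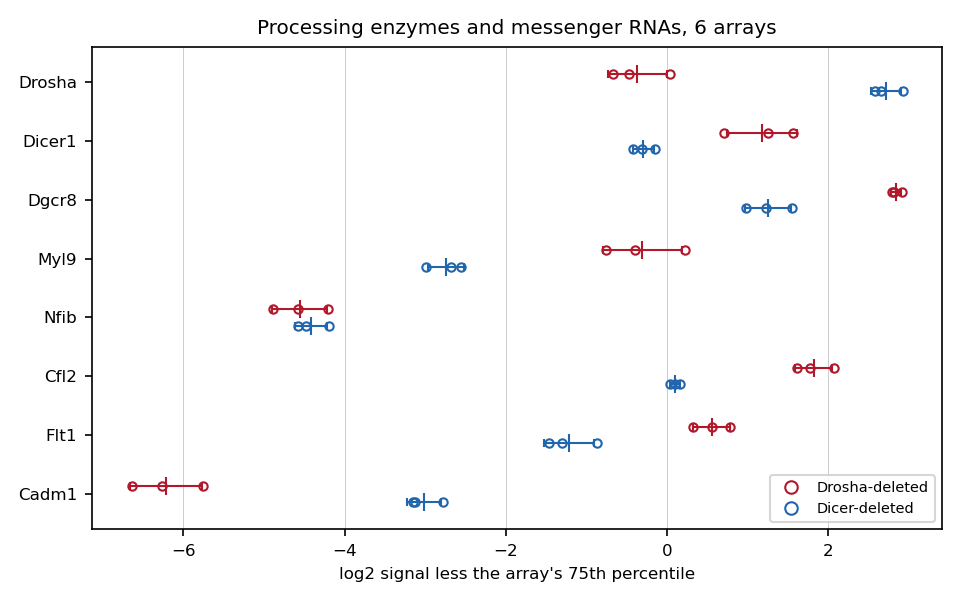
Levels of Drosha, Dicer1 and 6 messenger RNAs on each array (x axis, log2 signal less the 75th percentile of the array), Drosha-deleted in red and Dicer-deleted in blue; circles are arrays, and the vertical tick and bar give the mean and SD of 3 arrays. Drosha and Cadm1 are lower in Drosha-deleted cells, Nfib overlaps, and the others are higher, with a difference of 1.58 for Dgcr8 and 2.43 for Myl9.

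The remaining calls were few. Cadm1, an adhesion molecule of the immunoglobulin family, was at -2.78, -3.16 and -3.12 in Dicer-deleted cells and was not well above background on any Drosha-deleted array. It was at least 3.79-fold lower in Drosha-deleted cells (measured difference -3.19, limma adjusted p = 0.0375), while the authors' values gave -1.19 (0.218). C530014P21Rik, an unplaced transcript on the array between Efna5 and Fbxl17, passed in the authors' values (1.36, limma adjusted p = 0.0266); in the scanner values it was at -2.60, -2.63 and -2.30 in Drosha-deleted cells, not well above background in Dicer-deleted cells and at least 4.93-fold higher (0.274). Its neighbour Efna5, an ephrin ligand gene, was at -1.47, -1.65 and -1.90 against -3.38, -4.26 and -3.19, a difference of 1.93 (0.239).

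Several further genes had groups apart but did not pass the threshold, with limma adjusted p from 0.0842 to 0.239. Of all features, 7.75% were apart with the Drosha-deleted arrays higher and 7.6% with them lower. Flt1, which encodes a receptor for vascular endothelial growth factor, was at 0.77, 0.56 and 0.32 in Drosha-deleted and at -0.87, -1.47 and -1.30 in Dicer-deleted cells, a difference of 1.76 (limma adjusted p = 0.101). A further array transcript placed between Flt1 and Pomp differed by 1.79 (0.0842). Dusp10, a phosphatase gene of the stress kinase pathways, differed by 1.44 (0.121), Tgfb1i1, a focal adhesion adaptor gene, by 1.42 (0.239) and Bmp2, a growth factor gene that was well above background on 1 of the 3 Dicer-deleted arrays, by 2.44 (0.138). The unplaced transcript 4833445I07Rik, between Ndufaf3 and Dalrd3, was at 1.67, 2.24 and 2.02 against 0.00, 0.26 and -0.53, a difference of 2.07 (0.121). On the other side 1700016F12Rik differed by -1.51 (0.112).

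Genes of blood lineages were compared through lists of known markers, and 0 of their members passed the adjusted threshold in either source. In these bulk samples, fewer cells of a type and less RNA per cell cannot be told apart. Of 28 megakaryocyte and platelet genes, 11 were higher at an unadjusted p under 0.05 and 0 lower, against 4.28% and 3.44% of all features, and the median was 0.34. The platelet chemokine gene Ppbp was at 5.90, 4.83 and 5.60 in Drosha-deleted and at 4.55, 4.26 and 4.25 in Dicer-deleted cells, a difference of 1.09 (limma adjusted p = 0.471). The channel gene Trpc6 differed by 0.52 (0.542) and the platelet receptor gene Gp1bb by 0.51 (0.447). Myl9, which is counted in this list too, is the member with the largest difference.

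Dendritic cell genes gave 7 of 30 higher and 0 lower at that level, against 4.28% and 3.44% of all features, with a median of 0.45. Of the 30 differences 23 were above 0. Those below 0 included Cd80 at -0.28, H2-DMa at -0.26 and the dendritic transcription factor gene Zbtb46 at -0.25, all with overlapping groups. Of these 30 genes 5 were short of background on at least 1 Dicer-deleted array and 0 on a Drosha-deleted array, so they passed the filter through the Drosha-deleted arrays alone, as Ccl22 did. The 25 genes above background on all 6 arrays gave 5 higher and 0 lower, with a median of 0.35. Of all 20965 such features 788 were higher and 700 lower at that level. The chemokine gene Ccl17 was at 1.35, 2.55 and 1.42 in Drosha-deleted and at -1.03, -2.57 and -1.05 in Dicer-deleted cells, a difference of 3.32 (limma adjusted p = 0.249). The maturation marker Cd83 was at -0.93, 0.34 and -0.15 against -2.23, -3.05 and -1.90, a difference of 2.14 (0.319), and the cytokine receptor gene Flt3, which progenitors express as well, was at 2.07, 2.00 and 2.44 against 1.20, 1.08 and 1.52, a difference of 0.90 (0.335). Ccl22 was not well above background on any Dicer-deleted array and was at least 3.11-fold higher in Drosha-deleted cells (0.284). For Ccl17 and Cd83 Drosha-deleted replicate 2 was the highest array and Dicer-deleted replicate 2 the lowest.

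Eosinophil genes gave 4 of 12 higher and 0 lower, all 4 of them Ear ribonuclease genes, which are near-identical paralogs whose probes may not tell them apart. Of the 12 genes 2 were short of background on at least 1 Dicer-deleted array and 0 on a Drosha-deleted array. These passed the filter through the Drosha-deleted arrays alone. The 10 genes above background on all 6 arrays gave 3 higher and 0 lower, against 788 and 700 of all 20965 such features, with a median of 0.35. Ear2 was at 1.98, 2.45 and 2.00 in Drosha-deleted and at -0.44, -3.25 and 0.79 in Dicer-deleted cells, a difference of 3.11 (0.78 to 5.45; limma adjusted p = 0.542). Dicer-deleted replicate 2 was lowest for Ear1, Ear2, Ear6 and Ear10. The 8 other measured genes of the list, with the granule genes Epx, Prg2 and Prg3 among them, lay between -0.07 and 0.55. The part of eosinophil or dendritic cell content in any of these differences was not tested.

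Monocyte and macrophage genes differed in the other direction, with 6 of 28 lower at an unadjusted p under 0.05, 0 higher and a median of -0.14. Of all features 3.44% were lower and 4.28% higher at that level. The lectin receptor gene Clec4d was at 2.25, 2.05 and 2.39 in Drosha-deleted and at 3.04, 3.41 and 3.37 in Dicer-deleted cells, a difference of -1.04 (limma adjusted p = 0.227). The endotoxin co-receptor gene Cd14 was at 0.31, 0.19 and -0.15 against 1.37, 1.07 and 0.97, a difference of -1.02 (0.280). The Fc receptor gene Fcgr1 differed by -1.05 (0.411) and Clec4e by -0.86, all with groups apart. Neutrophil genes gave 0 of 26 higher and 1 lower, Fpr1 at -0.82, with a median of 0.38, and 0 of 23 mast cell and basophil genes had an unadjusted p under 0.05. Erythroid genes gave 3 of 19 higher, early lymphoid genes 1 of 17 and endothelial and stromal genes 1 of 12, each with 0 lower. Among members above background on all 6 arrays these counts were 1 of 17, 1 of 14 and 0 of 9, against 788 of all 20965 such features. Stem and multipotent progenitor genes gave 1 of 31 higher, Flt3, and 2 lower, Cd48 at -0.37 and Lmo2 at -0.68 (1 Drosha-deleted array dropped for an outlier mark), with a median of -0.01.

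**Figure D5:**
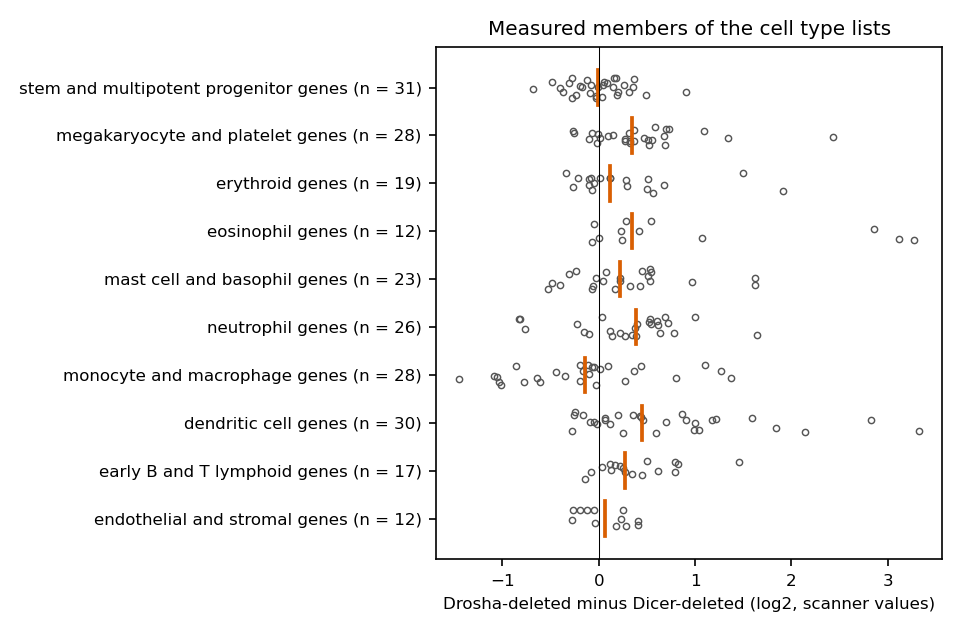
Difference between Drosha-deleted and Dicer-deleted cells (x axis, log2, scanner values) for the measured members of 10 cell type lists; each circle is a gene and the orange bar is the median of the list. Medians run from -0.14 for monocyte and macrophage genes to 0.45 for dendritic cell genes, and no circle passed the adjusted threshold.

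Position on the slide moved with the groups in part, since 2 of the 3 Drosha-deleted arrays lay in the first row and no Dicer-deleted array did. With the slide row as a block, a difference becomes Drosha-deleted replicate 3 less the mean of the Dicer-deleted arrays of its own row. For the 13 called features and Dicer1, all 14 kept their sign in both sources. Their groups did not overlap, so this sign could not have changed, and an effect of the row was not tested by it. The Jak1-Ak4 region differed by 2.94 within that row (limma adjusted p = 0.0304), Aopep by 2.01 (0.0304), Drosha by -2.69 (0.0304), Mir17hg by 2.18 (0.0304), the Kcnrg-Dleu7 region by 2.48 (0.0593), the Klf14-Mkln1 region by 3.06 (0.0713), Dgcr8 by 1.66 (0.0760) and Cfl2 by 1.51 (0.0580). Cadm1, at a measured -2.73 (0.0440), and the Usp25-Cxadr region, at 3.70 (0.0580), each had 1 group not well above background. These within-row values rest on 1 Drosha-deleted array.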

How the data were processed

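Total RNA from LSK cultures was labelled with Cy3 on one-colour Agilent arrays (design 028005), per the labels. The deposited scanner files hold intensity values that, per the file headers, were made with Feature Extraction 10.7.3.1 under protocol GE1_107_Sep09, with background subtracted, spatial trend removed and low values replaced by surrogates. The deposited table of the whole series holds the authors' log2 values; the submitters' processing notes name limma, and the background step is not given in the sources used here. All 6 columns correlated best with the scanner values of their own array.

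The processed signal was taken as log2 less the 75th percentile of each array. Of 62976 spots, 3671 controls and outlier spots were left out. A probe had to be well above background on all arrays of a group (30412 of 55681 passed), each gene name of the array was represented by its brightest probe on average, which gave 22440 features, and at least 2 arrays per group had to have a value. The comparison used limma 3.58.1 (R 4.3.3, data.table version 1.17.8), two-sided, with Benjamini-Hochberg adjustment over all features, a threshold of 0.05 and 95% intervals; the number of arrays limits the precision. Code was tested on simulated data. A bound ("at least") sets the bright group against, per array, the higher of the dim probe's own signal and the lowest signal well above background.

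MicroRNAs were assigned to features by their named neighbours on mm9 looked up in the gene order of RefSeq for GRCm38.p6, and no coordinates were converted. The text names the largest called differences, the targeted and processing genes, hosts and up to 4 members of each of 28 lists, with loci of the same microRNAs chosen after their values were seen. The members and the lists were chosen with earlier results of these data known. Alternatives covered background, scaling, filter, probe choice, moderation, weights, blocks and omitted arrays.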

Additional observations from a re-analysis of the deposited data

How the results depend on the processing

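Calls depended on the processing more than differences did: over 110 named features, 4 of 1852 comparisons with alternatives changed sign in the scanner values, all of Nfib, and 0 of 1317 in the authors' values, whereas 61 and 62 lost a call and 59 and 28 gained one. Against 8 calls in the scanner values there were 22 with the array median (19 higher, 3 lower), 19 with array weights, 19 with normexp background correction (18 higher, 1 lower), 16 with trend and robust moderation, 1 without the filter on background, 38 with the slide row as a block (15 higher, 23 lower), an alternative chosen after seeing the data, and 0 to 8 with 1 array left out. Against 11 in the authors' values there were 26 with array weights, 17 with the mean of a gene's probes, 20 with trend and robust moderation, 59 with the slide row (31 higher, 28 lower) and 3 to 5 with 1 array left out. With the replicate number as a block there were 0 calls in both sources (1284 and 1243 features at an unadjusted p under 0.05), and Drosha was at -3.09 (limma adjusted p = 0.427) and -3.02 (0.0937). The deviations of same-numbered arrays from their group means correlated at -0.23, -0.09 and -0.15 in the scanner values. With 3 arrays per group these correlations cannot decide whether the numbers pair the samples. Drosha was at -3.09 without the filter (0.119) and between -3.29 and -2.94 with 1 array left out, called then only without Drosha-deleted replicate 3. Nfib was at 0.076 in the authors' values, 0.094 with normexp, 0.21 with the slide row and -0.32 to 0.023 with 1 array left out.

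The count of same-strand noncoding features above 1 unit stayed near its value under every alternative, while medians of small lists moved. The median of noncoding hosts was 0.54 in the authors' values, 0.46 without the filter or with a filter on all 6 arrays, 0.45 with normexp and 0.61 to 1.03 with 1 array left out, and 0.29 in the authors' values without the filter. The median of mRNAs cleaved by Drosha was -0.14 and 0.076 without the filter, which adds dim members. Endothelial and stromal genes had medians of -0.043 without the filter, -0.034 with all 6 arrays above background, 0.31 and 0.12 with the slide row, and -0.056 to 0.22 and -0.051 to 0.18 with 1 array left out. Histones were at 0.38 with array weights, 0.19 with the slide row, and 0.15 to 0.39 and 0.18 to 0.37 with 1 array left out. With the slide row stem cell genes were at 0.16 and 0.17 and unfolded protein genes at -0.11, the latter at -0.073 to 0.17 with 1 array left out. Ribosomal protein genes were at -0.067 in the authors' values with the mean of a gene's probes. The causes of these shifts, other than the filter's, were not tested. A block for slides was not run because all 6 arrays lay on 1 slide. Signal over background limited Cadm1, C530014P21Rik, the Usp25-Cxadr region and Mir99ahg, for which 1 group gave only a bound.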

Other observations

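The medians of 9 lists of housekeeping, stress and signalling genes lay between -0.15 and 0.27 on the log2 scale, and the smallest limma adjusted p of any member was 0.335. Of 45 cytosolic ribosomal protein genes and of 31 oxidative phosphorylation genes 0 had an unadjusted p under 0.05, with medians of -0.05 and -0.02. At that level 4.28% of all features were higher and 3.44% lower in the scanner values, and 4.64% and 3.48% in the authors' values. Of 38 DNA replication and mitosis genes 2 were higher and 0 lower at that level, with a median of 0.04, and Ccne2, a cyclin of the entry into DNA synthesis, differed by 0.45 (limma adjusted p = 0.465). Replication-dependent histone genes had a median of 0.27 with 0 of 20 at that level in the scanner values and 4 of 20 higher in the authors' values, with 18 of 20 differences above 0 in each. Of 29 p53 target genes 2 were lower, with a median of -0.05, and Zmat3, a p53-induced RNA-binding protein gene, differed by -0.47 (0.579).

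Interferon-stimulated genes and sensors of double-stranded RNA, 32 measured, gave 1 higher and 2 lower, against 4.28% and 3.44% of all features, with a median of 0.15. The antiviral membrane protein gene Ifitm3 differed by -0.34 (limma adjusted p = 0.603). In the unfolded protein and amino acid stress list 1 of 30 was higher, the stress transcription factor gene Atf3, at 0.76, 1.87 and 1.62 in Drosha-deleted and -0.09, -1.16 and 0.50 in Dicer-deleted cells, a difference of 1.66 (0.505). The authors' values gave 4 of 30 higher in that list. Of 24 genes of cytokine receptors and JAK-STAT feedback 4 were higher and 0 lower, against 4.28% and 3.44% of all features. Among the 4 were Flt3 and Il6st, the shared IL-6 receptor subunit, at 0.81 (0.600). In the Bcl2 family the median was -0.15 and the death-promoting gene Bik differed by 0.73 (0.461).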
